A study of Mus musculus with 4 samples.

Results

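The HOX clusters were described in 4 ATAC-seq libraries of reprogramming mouse fibroblasts. The members are the 39 protein-coding genes named Hoxa, Hoxb, Hoxc or Hoxd with a paralogue number, out of 21883 protein-coding genes of the gene table, and the accessible regions in the 4 windows that hold them. Each window is the span of a cluster plus 100 kb on either side. Overlapping peaks of the 4 libraries (by 1 bp or more) were joined into regions, of which 106 lay in these windows and 90239 on all chromosomes used. Membership was set by gene name and position alone, and no measured value entered it.

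All libraries came from the iMGT-Myh6-eGFP-MEF line, mouse embryonic fibroblasts that carry the heart transcription factors Mef2c, Gata4 and Tbx5 (MGT) under doxycycline control. The line is also named for an eGFP reporter of Myh6, a heart myosin gene. Cells were transfected with an siRNA against the sulfotransferase gene Chst7 (siChst7, 2 libraries) or with a control siRNA (siControl, 2 libraries), given 1 μg/mL doxycycline the next day, and taken at day 1 after MGT induction. Both groups were therefore given the inducer of MGT, whose expression was not measured here. Neither cells without induction nor another day are part of the comparison. The embryonic region and stage the fibroblasts came from, and whether the line is a single clone, are not stated in the labels. ATAC-seq reads open DNA through the cuts of the Tn5 transposase, here over the whole cell population, so that a site open in few cells and a site weakly open in all cells cannot be told apart. The labels call the replicates biological without saying whether they were separate cultures, so the spread behind every difference is that of these samples and may be technical.

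The lists held 74402 and 66165 peaks in siChst7 replicates 1 and 2, and 73902 and 75696 peaks in siControl replicates 1 and 2. Read totals are unknown. The background read density, recovered from the lists and set to 1 in siControl replicate 1, was 1.02 and 0.757 in siChst7, against 1 and 0.964 in siControl. The second siChst7 library is thus the shallowest and has the shortest list. Of 10 fibroblast marker genes 9 had a peak within 1 kb of an end in every library, among them Col1a1, Postn, Thy1 and Twist1, and the exception was Pdgfra. Of all protein-coding genes 53.8% had such a peak, and these markers were picked after the files were seen. Chst7 had such a peak in every library too, with a fold enrichment of 11.97 and 11.996 in siChst7, against 15.04 and 13.1 in siControl; an siRNA acts on the transcript, and knockdown was not measured here.

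Hox genes encode homeodomain transcription factors that tell cells where along the body axis they lie. They sit in 4 clusters in the order in which they are used along that axis, the low numbers towards the head and the high numbers towards the tail and the tips of the limbs, and members of different clusters with the same number are paralogues. Polycomb complexes keep unused Hox genes silent and trithorax complexes keep used ones active, and adult fibroblasts hold on to the Hox pattern of the place they came from, which is called positional memory. In what follows paralogues 1 to 4 are called anterior, 5 to 8 central and 9 to 13 posterior.

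The Hoxa, Hoxb and Hoxc clusters were accessible at many sites in every library, and the Hoxd cluster at almost none. A region within 1 kb of a gene start was called in all 4 libraries for 18 of the 39 genes (46.2%), in some of the libraries for 2 and in none for 19. By cluster these were 8 of 11 Hoxa genes, 4 of 10 Hoxb genes, 6 of 9 Hoxc genes and 0 of 9 Hoxd genes. Over all 17491 protein-coding genes with a RefSeq start the share was 54.1%, and of the 22 Hox genes with a RefSeq start 8 (36.4%) had such a region. Those 22 include all 9 Hoxd genes, none of which had one, so the lower share rests on Hoxd. For the other 17 Hox genes the start was taken as the end of the gene that lies upstream by the strand of its cluster. By position, 6 of 12 anterior, 7 of 11 central and 5 of 16 posterior genes had a start region in all 4 libraries. By paralogue number, both members of group 7 and 3 of 4 members of group 4 had one, whereas no member of groups 11 and 12 had one in every library.

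**Figure D1:**
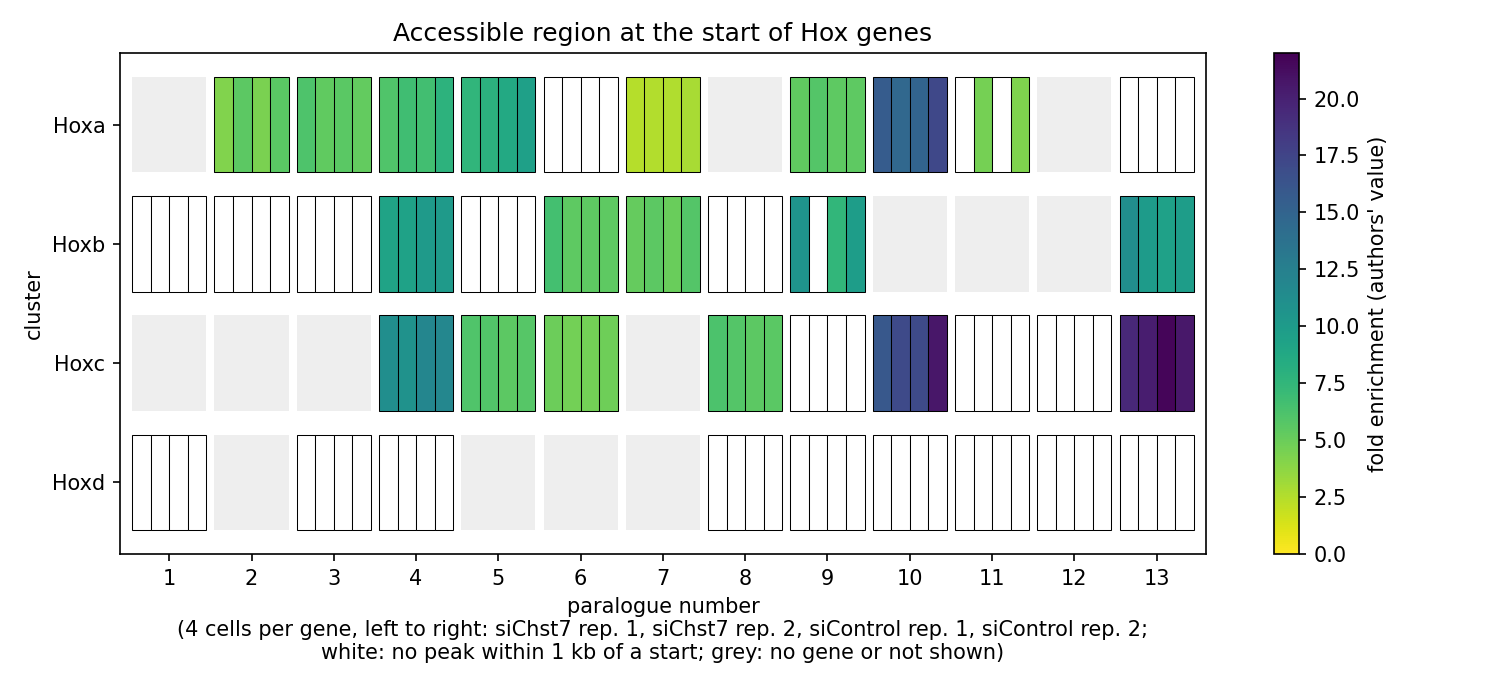
Fold enrichment at the start of the Hox genes reported here, with clusters as rows and paralogue numbers as columns. Where several regions lay within 1 kb of a start, the highest value is shown. Each gene has 4 cells, for siChst7 replicates 1 and 2 and then siControl replicates 1 and 2, white where no peak lay within 1 kb of a start, and grey squares mark numbers that a cluster lacks or that are not reported here. The Hoxd row is white throughout, and Hoxc10, Hoxc13 and Hoxa10 carry the highest values.

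Promoter sequences show what the open and the closed starts look like at the level of the DNA. They run from 250 bases before to 50 after the start, are taken from RefSeq (GRCm38.p6) and are printed 5′ to 3′ along the gene. Capitals mark every match, on either strand, to 1 of the motifs searched, namely the E-box CACGTG, the MEIS motif TGACAG, the joint motif TGATNNAT of PBX and HOX, the AP-1 motif TGANTCA, the box TATAAA, the CCAAT box, the SP motif GGGCGG and, by its name alone, the core motif of CTCF. Matches that overlap share their capitals. The first 3 lie under a region called in all 4 libraries, and the last 3, shown for contrast, had no peak at the start in any library.
Hoxa5 (chr6:52204538-52204837, - strand): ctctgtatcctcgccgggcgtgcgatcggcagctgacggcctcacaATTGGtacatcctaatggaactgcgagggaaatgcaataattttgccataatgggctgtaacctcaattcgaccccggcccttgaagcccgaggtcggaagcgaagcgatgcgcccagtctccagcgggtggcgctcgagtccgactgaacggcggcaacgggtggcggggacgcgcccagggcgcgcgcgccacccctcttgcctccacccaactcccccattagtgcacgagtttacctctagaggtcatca
Hoxa10 (chr6:52240805-52241104, - strand): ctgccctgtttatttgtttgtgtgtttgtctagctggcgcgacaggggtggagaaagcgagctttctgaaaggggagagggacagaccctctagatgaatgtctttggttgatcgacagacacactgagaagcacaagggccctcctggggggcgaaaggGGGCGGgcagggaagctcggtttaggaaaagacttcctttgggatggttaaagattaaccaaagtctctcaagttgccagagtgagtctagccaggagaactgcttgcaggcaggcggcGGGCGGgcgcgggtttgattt
Hoxc4 (chr15:103034145-103034444, + strand): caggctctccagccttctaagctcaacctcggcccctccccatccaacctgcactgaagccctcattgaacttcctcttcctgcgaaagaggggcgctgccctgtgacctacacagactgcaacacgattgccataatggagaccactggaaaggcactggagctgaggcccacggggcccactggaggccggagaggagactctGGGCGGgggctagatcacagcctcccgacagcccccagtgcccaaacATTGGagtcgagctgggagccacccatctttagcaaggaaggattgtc
Hoxa13 (chr6:52260831-52261130, - strand): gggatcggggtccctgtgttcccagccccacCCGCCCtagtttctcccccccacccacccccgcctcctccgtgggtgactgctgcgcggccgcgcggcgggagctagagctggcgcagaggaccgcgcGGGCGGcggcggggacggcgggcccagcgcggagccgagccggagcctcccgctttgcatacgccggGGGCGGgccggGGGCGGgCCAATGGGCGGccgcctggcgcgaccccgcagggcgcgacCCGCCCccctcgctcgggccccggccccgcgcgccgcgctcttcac
Hoxd13 (chr2:74667975-74668274, + strand): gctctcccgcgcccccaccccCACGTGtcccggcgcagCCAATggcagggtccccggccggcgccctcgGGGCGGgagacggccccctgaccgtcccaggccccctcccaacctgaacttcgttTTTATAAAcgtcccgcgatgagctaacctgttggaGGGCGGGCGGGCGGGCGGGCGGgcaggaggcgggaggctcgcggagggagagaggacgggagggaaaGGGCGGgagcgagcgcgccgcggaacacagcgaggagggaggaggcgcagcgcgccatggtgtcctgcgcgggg
Hoxd4 (chr2:74721728-74722027, + strand): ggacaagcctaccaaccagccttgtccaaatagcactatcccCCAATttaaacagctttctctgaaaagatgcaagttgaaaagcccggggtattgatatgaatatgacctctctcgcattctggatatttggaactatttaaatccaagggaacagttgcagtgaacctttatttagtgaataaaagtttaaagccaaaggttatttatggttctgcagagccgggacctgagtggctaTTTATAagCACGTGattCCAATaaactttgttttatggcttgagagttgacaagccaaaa

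The Hoxa13 window held 45 CpG dinucleotides and 81% G and C, and the Hoxd13 window 37 CpG and 74.3%, but the Hoxd4 window, also closed, 4 CpG and 39.7%. Of the open windows, that of Hoxa5 held 29 CpG, that of Hoxa10 12 and that of Hoxc4 9. Over the 24 promoter windows of 22 Hox genes in the table, the 5 that lay under a region of all 4 libraries had a median of 12 CpG, and the other 19 a median of 15. Those 19 hold all 10 windows of Hoxd genes, and they are not all closed by the 1 kb rule. They include the windows of Hoxa7, Hoxa9, Hoxb4 and the inner Hoxa10 start, which had a region of all 4 libraries within 1 kb. All 21262 protein-coding promoters had a median of 13. CCAAT was found in 15 of the 24 Hox windows (62.5%) and in 38.2% of all promoters. GGGCGG was in 10 Hox windows (41.7%) and in 46.2% of all promoters, with 7 matches in the Hoxd13 window alone. TGATNNAT was in 4 windows (16.7%), against 7.45% of all promoters, and the CTCF core motif in none of the 24, against 2.93%. CACGTG was in 5 windows (20.8%), all of Hoxd genes, against 7.84% of all promoters. These shares describe letters in 24 windows and say nothing of what binds there.

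In the Hoxa cluster, every gene from Hoxa2 to Hoxa10 other than Hoxa6 had an accessible start, that is, a region of all 4 libraries within 1 kb of it. Fold enrichment below is the value the authors list for a peak, the pileup at its summit over the local background in that library, and the highest in the region where a library lists several. At Hoxa2, which sets the identity of the second pharyngeal arch, it was 4.202 and 5.56 in siChst7 and 4.45 and 5.59 in siControl. The 2 groups overlapped there. Over all regions of the genome called in all 4 libraries, both siChst7 folds were below both siControl folds at 29.8% and above them at 11.2%, and the single genes here are to be read against those shares. Hoxa3, needed for thymus and parathyroid, had 6.11 and 5.38 in siChst7 and 5.59 and 5.30 in siControl, and the ranges overlapped. Hoxa4 had 6.09 and 6.78 in siChst7 and 6.65 and 7.89 in siControl, and here too they overlapped.

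Hoxa5, which patterns lung and the neck-to-chest skeleton, had a region over its start at chr6:52204169-52204928 with 7.63 and 7.95 in siChst7 and 8.74 and 9.59 in siControl. Both siChst7 libraries were below both siControl libraries there. The lowest fold enrichment at any start was that of Hoxa7, at 2.45 and 2.52 in siChst7 and 2.59 and 2.92 in siControl, in a region 0.924 kb inside the gene, where both siChst7 libraries were lower again. Its local background was the highest of all regions called in every library here, and its summit reached 58.0 times the background of the library, above the genome median of 31.0. Hoxa9, a regulator of blood progenitors, also had its region inside the gene, 0.878 kb from the start. The values there were 5.37 and 5.87 in siChst7 and 5.46 and 5.50 in siControl, which overlapped. Between these genes Hoxa6 had no peak at its start in any library, and its nearest region of all 4 libraries was 2.65 kb away.

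The posterior Hoxa genes split. Hoxa10, which patterns the uterus and the upper limb skeleton, held the region of the cluster span with the highest fold enrichment, chr6:52239801-52240952, over the more upstream of its 2 starts. Its fold enrichment was 15.7 and 14.6 in siChst7 and 15.02 and 17.3 in siControl, and the ranges overlapped. Hoxa11, used in the forearm and lower leg, had a peak at its start in 1 siChst7 library (4.58) and 1 siControl library (4.27), in separate regions. Hoxa13, used in the hand and foot and in the hind end of gut and urogenital tract, had none. A region between Hoxa11 and Hoxa13, 3.49 kb from the Hoxa13 start, was called in every library, at 10.8 and 9.87 in siChst7 and 10.0 and 12.05 in siControl. At the limit of the 1 kb window, Hoxa7 lay just inside it, and Hoxb8, 2.28 kb from its nearest region of all 4 libraries, was the next outside.

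In the Hoxb cluster the 4 genes with an accessible start were Hoxb4, Hoxb6, Hoxb7 and Hoxb13. Hoxb4, known for the expansion of blood stem cells, had 9.28 and 9.33 in siChst7 and 10.1 and 10.1 in siControl, so that the siChst7 libraries were both lower. Hoxb6 had 6.57 and 5.46 in siChst7 and 5.47 and 5.45 in siControl, which overlapped. Hoxb7 had 2 regions within 1 kb of its start, whose highest values, 5.21 and 5.57 in siChst7 and 5.00 and 5.85 in siControl, overlapped as well. The region over the start itself, chr11:96285256-96287267, had 5.21 and 4.26 in siChst7 and 5.00 and 5.85 in siControl. There too the groups overlapped. Hoxb13, far from the rest of its cluster and best known from the prostate, had 11.2 and 10.03 in siChst7 and 9.49 and 9.83 in siControl, and both siChst7 libraries were higher. The start of Hoxb9 had a peak in 3 libraries, at 10.6 in siChst7 replicate 1 and 7.48 and 9.86 in siControl, and none in the shallow siChst7 replicate 2. Hoxb1, which marks a segment of the hindbrain, Hoxb2, Hoxb3, Hoxb5 and Hoxb8 had none in any library.

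The head end of Hoxb held a long stretch without a region of all 4 libraries. From the region at Hoxb4 the next one lay beyond Hoxb1, 34.9 kb from its start, and Hoxb2 was 31.4 kb from its nearest one. On the posterior side, between Hoxb13 and Hoxb9, lie 3 regions of all 4 libraries that cover no Hox gene. The strongest, chr11:96260103-96260917 in the non-coding gene Gm53, had 16.2 and 15.8 in siChst7 and 17.2 and 17.4 in siControl. A region between Hoxb9 and Hoxb8, chr11:96278561-96279238, had 14.2 and 16.1 in siChst7 and 14.9 and 16.2 in siControl. It lies just upstream of the outermost end of Hoxb8, whose RefSeq start is further inside the gene.

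Accessible starts in Hoxc were those of Hoxc4, Hoxc5, Hoxc6, Hoxc8, Hoxc10 and Hoxc13. The highest mean fold enrichment at any Hox start, in either group, was that of Hoxc13, a gene of hair and nail formation, in a region 0.105 kb upstream of it (chr15:102920481-102921026). It had 19.5 and 20.2 in siChst7 and 21.7 and 20.6 in siControl, with both siChst7 libraries lower, and stood above 99.0% and 99.2% of peaks of the siChst7 lists and 99.5% and 98.9% of peaks of the siControl lists. Hoxc10, used in the lumbar region and the hindlimb, had 16.1 and 17.0 in siChst7 and 17.1 and 20.6 in siControl, again without overlap. Hoxc4 had 11.2 and 10.8 in siChst7 and 11.9 and 11.8 in siControl. Here too both siChst7 values were the lower ones.

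The central Hoxc genes had lower values. Hoxc8, which patterns the chest skeleton, had 6.23 and 5.86 in siChst7 and 5.56 and 5.63 in siControl, with both siChst7 libraries higher. Hoxc5 had 6.02 and 6.01 in siChst7 and 5.57 and 5.83 in siControl, also both higher. Hoxc6 had 2 regions within 1 kb of its start, whose highest values, 4.91 and 4.72 in siChst7 and 4.71 and 4.84 in siControl, overlapped. The region over the start itself, chr15:102998048-102998380, had 4.84 and 4.72 in siChst7 and 4.69 and 4.56 in siControl. There both siChst7 libraries were higher. Hoxc9, Hoxc11 and Hoxc12 had no peak at the start in any library, although a region inside Hoxc9 (chr15:102981480-102982296) had 11.6 and 12.1 in siChst7 and 12.4 and 12.8 in siControl.

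Each of the 9 Hoxd genes was without a peak at its start in all 4 libraries, from Hoxd1 and Hoxd3 at the head end to Hoxd13, the gene of digit formation. The span of the cluster, 96.9 kb, held 3 regions, of which 1 was called in every library. That region, chr2:74715709-74716323, lies in Hoxd3 and the non-coding gene Hoxd3os1, 3.72 kb from the Hoxd3 start. Its fold enrichment was 14.9 and 17.2 in siChst7 and 17.0 and 14.5 in siControl, and the groups overlapped. The other 2 regions were weaker: chr2:74686417-74686682, in Hoxd10 and Hoxd11, was called in 1 library of each siRNA (7.93 in siChst7 and 9.23 in siControl), and chr2:74672961-74673217 in a single siControl library (5.33).

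Further out, Lnpk on the posterior side and Mtx2 on the head side had an accessible end. Evx2, the homeobox gene next to Hoxd13, had an end peak in 1 library of each siRNA only (5.64 in siChst7 and 5.78 in siControl). The region at the end of Lnpk, which encodes a protein of the endoplasmic reticulum and lies beyond Evx2, 88.8 kb from Hoxd13, had 18.1 and 19.1 in siChst7 and 18.6 and 19.2 in siControl. That at the end of Mtx2, a mitochondrial protein gene on the head side, had 14.4 and 13.2 in siChst7 and 12.5 and 13.3 in siControl. Neither pair of groups was apart. Between Hoxd13 and Evx2, a region at chr2:74663416-74664070, 4.16 kb from Hoxd13, was called in every library.

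The share of the cluster span under peaks gave the same order of clusters in every library. Peaks covered 13.6 and 11.8% of the Hoxa span in siChst7 and 13.4 and 14.4% in siControl. In Hoxc they covered 8.06 and 7.30% in siChst7 and 8.61 and 7.74% in siControl, and in Hoxb 5.71 and 4.62% in siChst7 and 5.90 and 5.33% in siControl. In Hoxd the share was 0.823 and 0.354% in siChst7 and 0.512 and 0.967% in siControl, below the 1.56 and 1.34% (siChst7) and 1.52 and 1.52% (siControl) of the genome between the first and last gene of each chromosome. The flanks had lower shares than the span in Hoxa, Hoxb and Hoxc, with means over the 4 libraries of 1.58, 3.54 and 2.36%, and a higher one in Hoxd (1.496%).

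**Figure D2:**
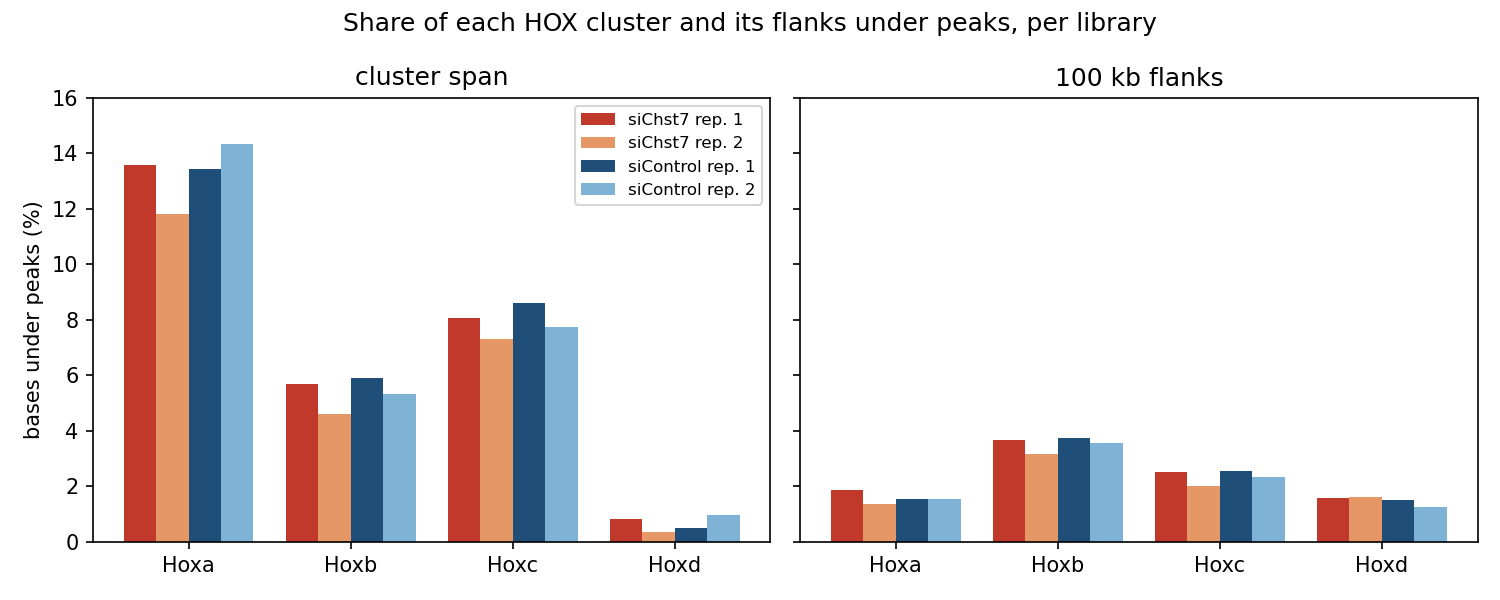
Percent of bases under peaks in the span of each cluster (left) and in its 100 kb flanks (right), 1 bar per library, with siChst7 replicates in red and orange and siControl replicates in dark and light blue. The Hoxa span is covered to between 11.8 and 14.4% and the Hoxd span to under 1% in every library.

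**Figure D3:**
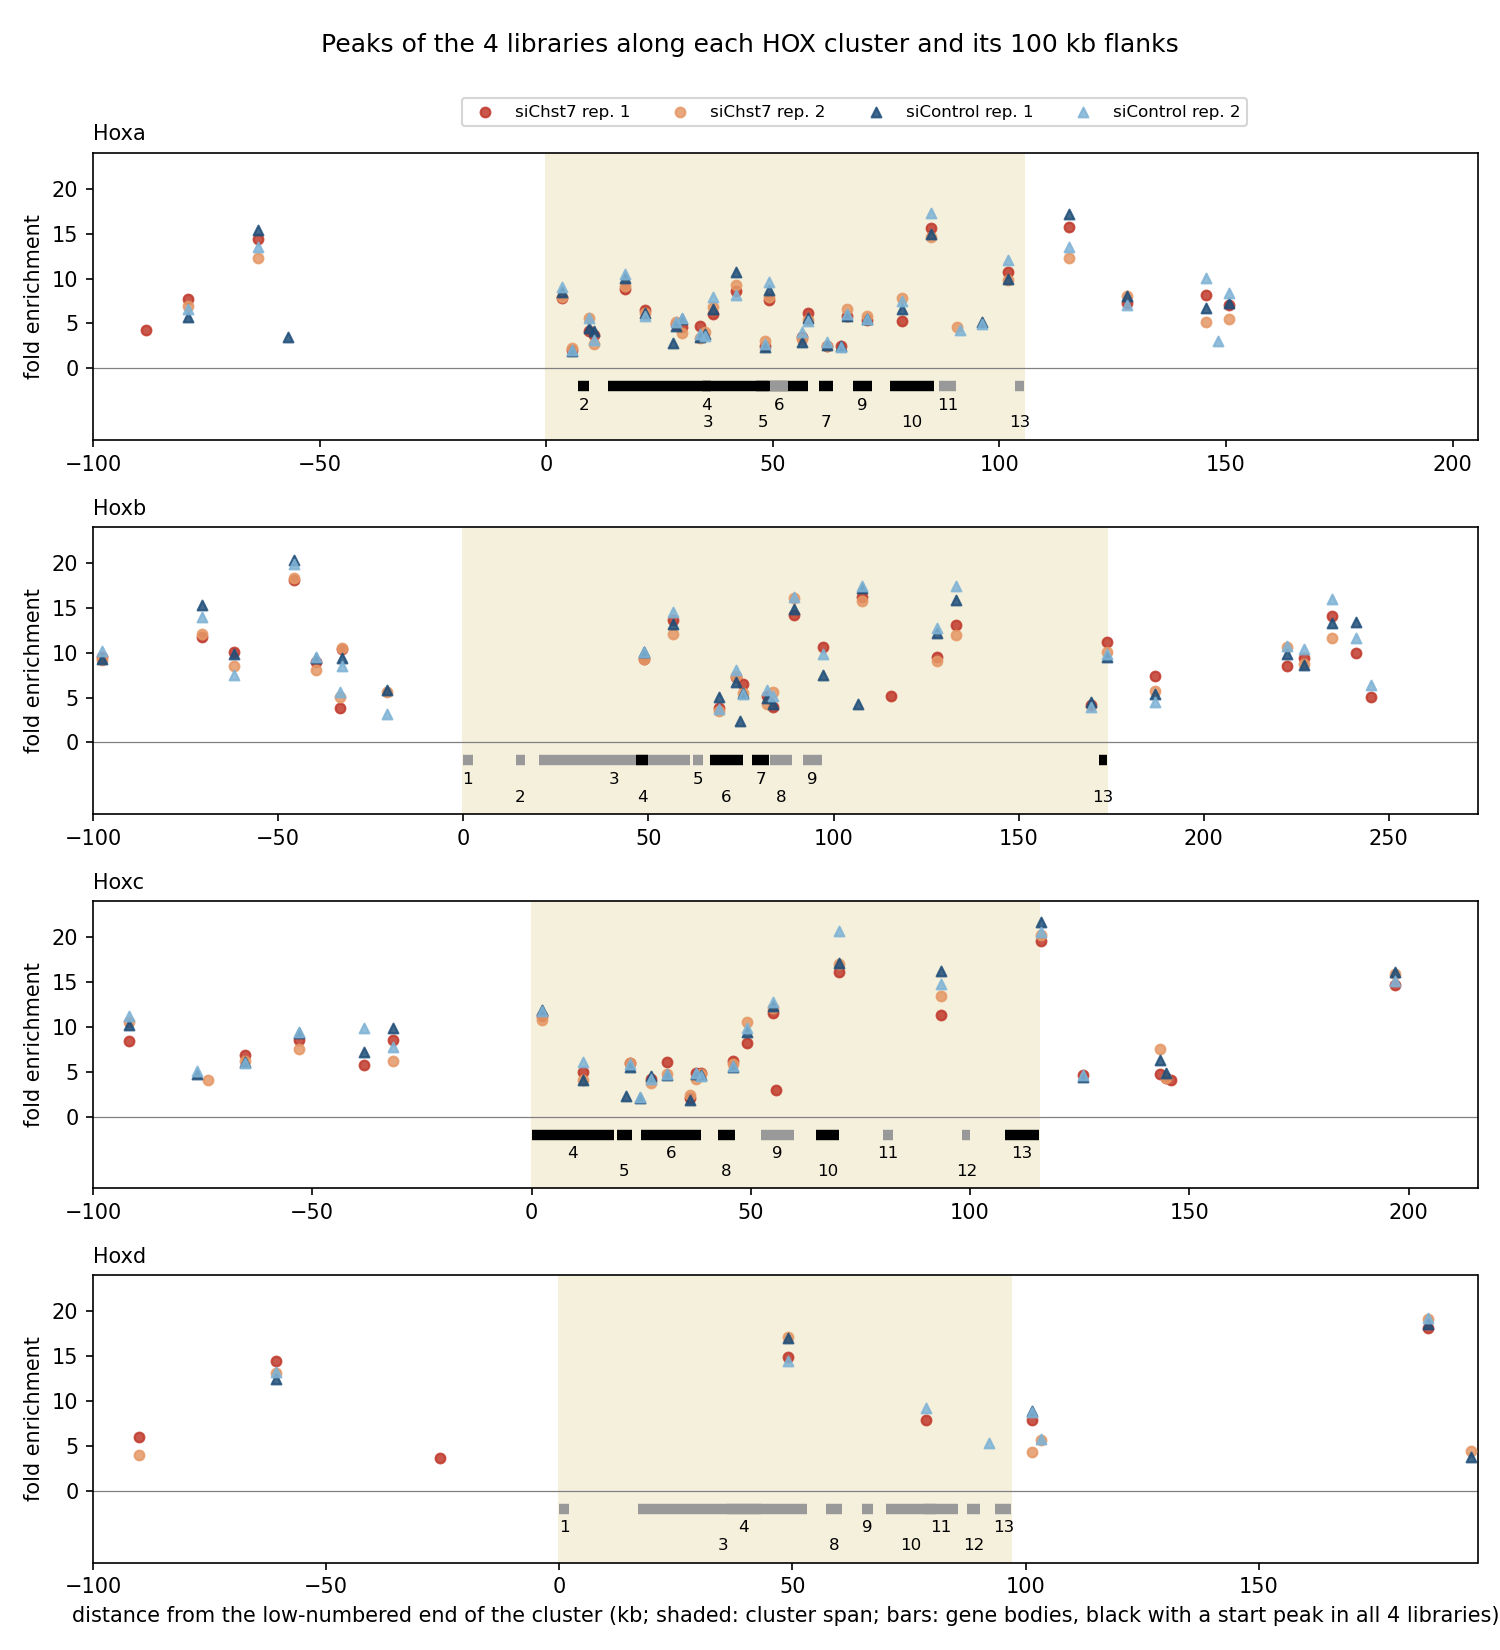
Fold enrichment of every peak region against its distance in kb from the low-numbered end of the cluster, 1 panel per cluster, with a marker for each library (circles for siChst7, triangles for siControl). The shaded band is the cluster span, and bars below are gene bodies with their paralogue number, black where the start has a region in all 4 libraries. Markers are dense up to Hoxa10 and leave the head end of Hoxb and nearly all of Hoxd empty.

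Peaks of the Hoxa cluster stood on a raised local background, which by the definition of the fold lowers it at a given summit height. The local background behind each fold was solved from the authors' fold and p, and divided by the background of that library over the genome. Across the 21 regions of all 4 libraries in the Hoxa span this ratio had a median of 11.2 and a range of 1.29 to 21.8, and 17 of them reached 5. The median was 5.13 in the Hoxb span (12 regions) and 5.74 in the Hoxc span (12 regions), against 2.79 over all 55924 regions of all 4 libraries, of which 29.1% reached 5. The single Hoxd region had 1.42. In the flanks of Hoxa the median was 1.32, and the highest value 3.06.

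The raised background did not run through the whole of Hoxa and Hoxc. On the head side, up to Hoxa9, the 18 regions had ratios of 4.54 to 21.8, and the 3 regions from Hoxa10 to Hoxa13 had 2.503, 4.38 and 1.29. The medians of the stretch up to Hoxa9 were 11.4 and 11.4 in siChst7 and 12.2 and 12.2 in siControl, and those of the Hoxa10 to Hoxa13 stretch 2.39 and 2.58 in siChst7 and 2.56 and 2.47 in siControl. In Hoxc the 5 regions from Hoxc6 to Hoxc5 had ratios of 9.89 to 16.03, against 2.07 to 5.91 in the 5 regions from Hoxc8 to Hoxc12 and 1.03 and 2.90 in the 2 regions at Hoxc4, on the head side. In Hoxb the 7 regions from Hoxb8 to Hoxb4 had a median of 5.66 and the 4 from Hoxb9 to Hoxb13 a median of 2.22, with ranges that overlapped. These stretches were drawn after the values were seen, and peaks within a stretch share the reads of their neighbourhood.

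Ranked by summit height instead of fold, the clusters change places. The median fold in the spans was 5.59 in Hoxa, 5.84 in Hoxc, 9.91 in Hoxb and 15.9 at the single Hoxd region, against 9.29 over the genome. The median summit pileup, in multiples of the background over the genome, was 56.3 in Hoxa, 57.9 in Hoxc, 37.2 in Hoxb and 31.0 in Hoxd, against 31.0 over the genome. By the mean over the 4 libraries, the highest summit of the 71 regions lay in the long Hoxa3 gene body (chr6:52172485-52173067), at 159 and 167 times the background in siChst7 and 185 and 190 times in siControl. Its fold enrichment was 8.87 and 9.19 in siChst7 and 10.1 and 10.5 in siControl, above 59.1 and 58.9% of the peaks of the siChst7 lists and 65.3 and 67.4% of those of the siControl lists. Both measures were lower in both siChst7 libraries at this region.

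**Figure D4:**
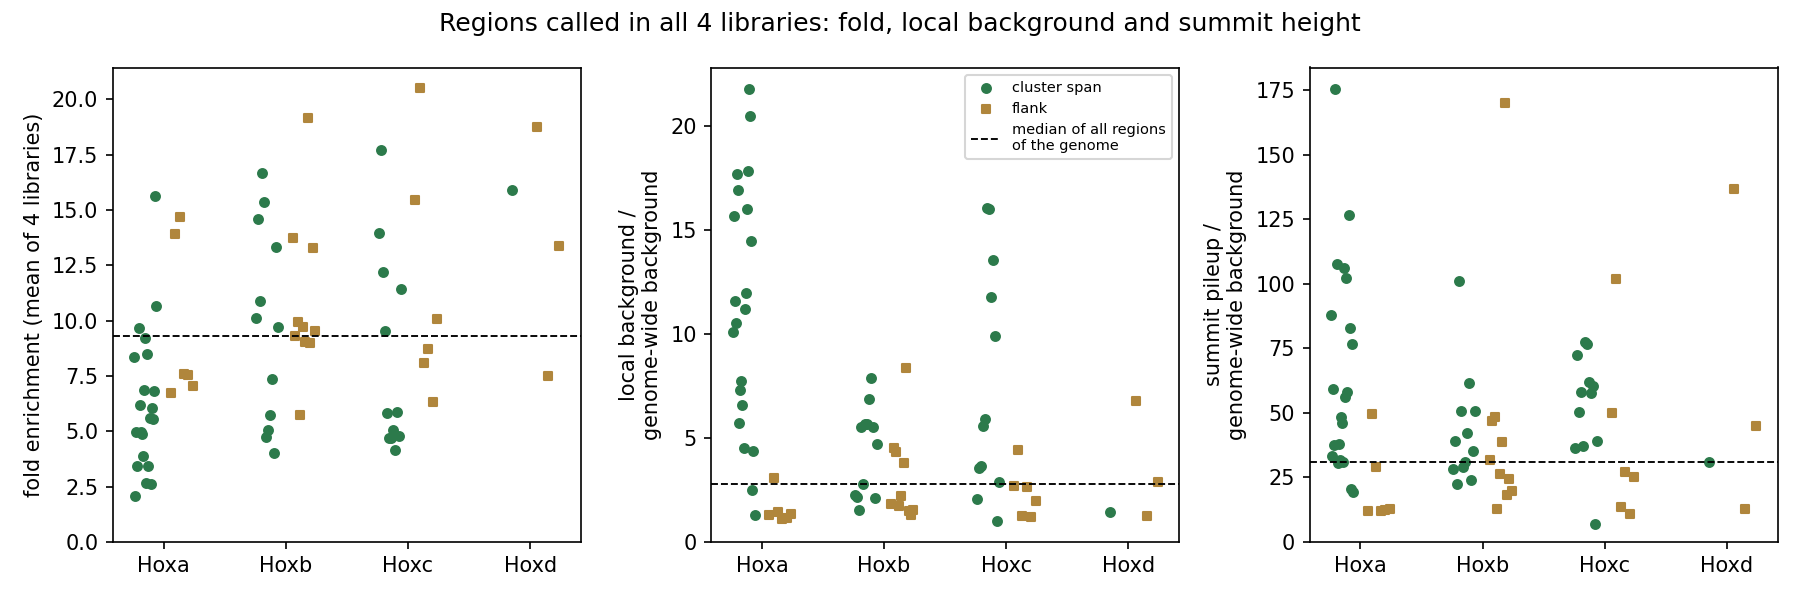
Mean fold enrichment (left), local background over the background of the whole library (middle) and summit pileup over that background (right) of the 71 regions called in all 4 libraries, by cluster. Circles are regions in the cluster span and squares those in the flanks, and the dashed line is the median of all 55924 such regions of the genome. Hoxa regions reach 21.8 in the middle panel while most of them lie under the line in the left one.

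Several non-coding RNA genes of the clusters had an accessible end, which need not be the end where transcription starts. Hotair, described in human fibroblasts of the lower body as a partner of Polycomb complexes, had a region 0.226 kb from its end on the Hoxc12 side (chr15:102943038-102943836). This region of the Hoxc cluster is also the one nearest to Hoxc12. Its fold enrichment was 11.3 and 13.4 in siChst7 and 16.2 and 14.8 in siControl, with both siChst7 libraries lower. Hoxaas2 and Hoxaas3 had a peak at an end in every library. Hottip, at the posterior edge of Hoxa and described in human cells as a partner of the trithorax complexes, had none within 1 kb, and its nearest region of all 4 libraries was 2.74 kb away at 15.8 and 12.3 in siChst7 and 17.2 and 13.6 in siControl. Hoxa11os had a peak at an end in 1 library, and Hoxb3os, Hoxb5os, Haglr and Halr1 had none.

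The clusters also hold miRNA genes, whose products act on Hox messages among others, miR-196 on that of Hoxb8 in the mouse. Their mature sequences, from RefSeq (GRCm38.p6), show the 2 families by their seeds, bases 2 to 8, which are in capitals.
mmu-miR-10a-5p (chr11:96317186-96317208, + strand): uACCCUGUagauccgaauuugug
mmu-miR-10b-5p (chr2:74726074-74726096, + strand): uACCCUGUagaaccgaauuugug
mmu-miR-196a-5p (chr11:96265187-96265208, + strand): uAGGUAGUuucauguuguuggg
mmu-miR-196b-5p (chr6:52230129-52230150, - strand): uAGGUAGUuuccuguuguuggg
mmu-miR-615-3p (chr15:103014969-103014990, + strand): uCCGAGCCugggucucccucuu

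The paralogous miR-10a-5p of Hoxb and miR-10b-5p of Hoxd share the seed ACCCUGU, and miR-196a-5p and miR-196b-5p share AGGUAGU. The gene of miR-615, inside Hoxc5, was the only miRNA gene of these clusters with a peak within 1 kb in all 4 libraries, the region of the Hoxc5 start 0.149 kb away. Mir10a was 1.31 kb from its nearest region of all 4 libraries, that of Hoxb4, while Mir10b in the closed Hoxd cluster was 9.75 kb away. Mir196b was 3.13 kb from the nearest one, Mir196a-1 4.25 kb and Mir196a-2 6.14 kb. A peak near a miRNA gene does not show where its primary transcript starts.

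Between the siRNAs, the map of the clusters differed little. Of the 106 regions 71 (67.0%) were called in all 4 libraries, against 62.0% of all regions. A single region was siChst7-specific, that is, present in each siChst7 list and absent from the siControl lists, against 1.24% of all regions. The reverse, siControl-specific, held for 3 regions, against 2.84% of all. Both counts are near what the shares of the genome give for 106 regions. Of the remainder, 12 were called in 3 libraries, 4 in 1 library of each siRNA and 15 in a single library. Of the 12 regions that a single library lacked, 6 were missing from the shallow siChst7 replicate 2; over the genome that library alone lacked 4792 regions, against 1461 to 1624 for each of the others. By cluster, regions of all 4 libraries numbered 27 of 36 in the Hoxa window, 22 of 31 in Hoxb, 18 of 29 in Hoxc and 4 of 10 in Hoxd.

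None of the 4 regions confined to 1 siRNA lay at a Hox start, and all were weak by fold. The siChst7 one, chr2:74854974-74855404, lies inside Mtx2, 92.0 kb from Hoxd1, with a fold enrichment of 5.95 and 4.03 and a −log10 q of 9.01 and 3.46. Of the siControl ones, chr6:52251338-52251573, between Hoxa11 and Hoxa13, had 5.14 and 4.97. A second, chr15:103011983-103012362, between Hoxc6 and Hoxc5, had 2.09 and 2.18 over a local background 11.9 and 10.8 times that of the library. Its summit reached 25.6 and 24.2 times the background of the library, against a genome median of 31.0 for regions of all 4 libraries. The third, chr15:103113057-103113331, 78.7 kb from Hoxc4, had 4.79 and 5.10. By fold these peaks stood above 0.141 to 33.5% of the peaks of their own lists.

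Over the 71 regions of all 4 libraries, both siChst7 folds were above both siControl folds at 10 (14.1%), against 11.2% over the genome. They were below at 21 (29.6%), against 29.8%. The median ratio of mean fold, siChst7 over siControl, was 0.940 for these regions and 0.960 for the genome. By cluster the counts above and below were 2 and 6 in Hoxa, 3 and 7 in Hoxb, 5 and 7 in Hoxc and 0 and 1 in Hoxd. Of the 24 regions within 1 kb of a Hox start, 4 were above and 7 below, with a median ratio of 0.949. After division of each fold by the median of its library, 16 regions were above and 16 below, against 20.5 and 17.3% over the genome, so the excess of lower values was absent on that scale. On the deposited scale, both the excess of lower over higher values and its size were near those of all regions, and their relation to the smaller depth of siChst7 replicate 2 was not tested.

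**Figure D5:**
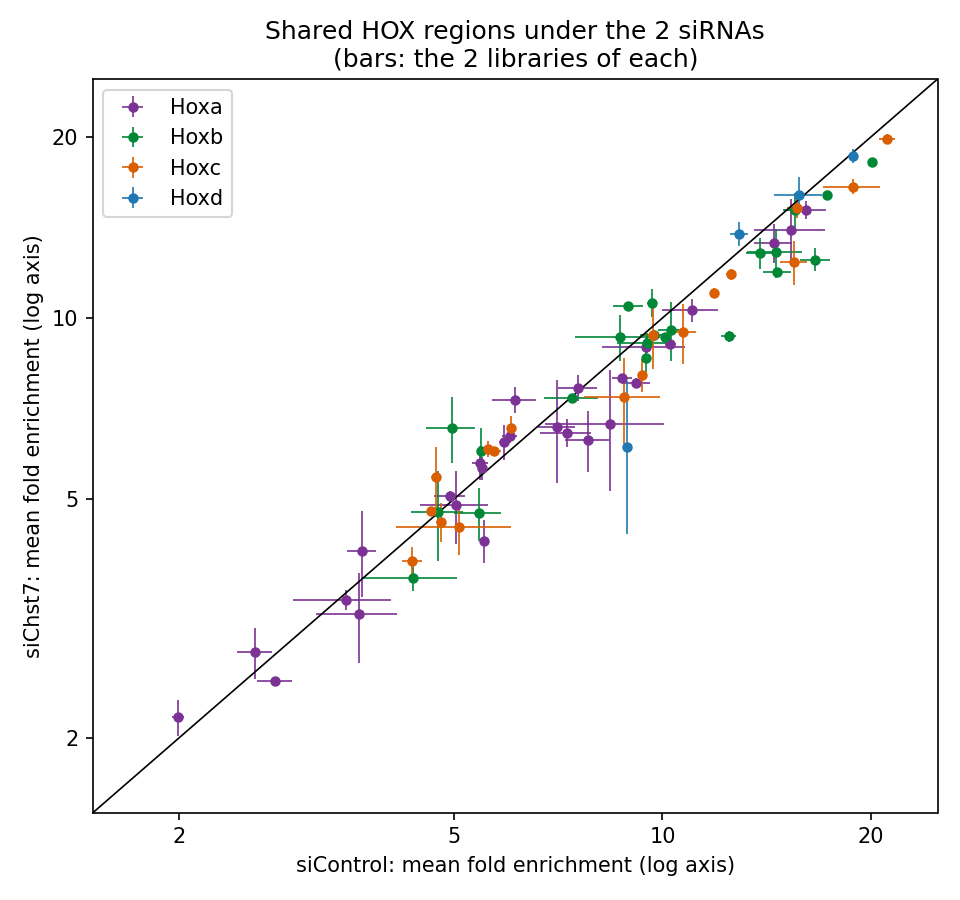
Mean fold enrichment in siChst7 (vertical axis, log scale) against siControl (horizontal axis, log scale) for the 71 regions called in all 4 libraries, coloured by cluster, with bars from the lower to the higher of the 2 libraries of a group. The line marks equal values, and the points lie along it with a median ratio of 0.940.

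The highest ratio among regions without overlap was 1.32, at chr11:96181011-96181847 in the flank 12.5 kb from Hoxb13. It had 7.39 and 5.73 in siChst7 and 5.36 and 4.55 in siControl. The next was 1.19, in the flank on the head side of Hoxa (chr6:52076026-52076677), with 7.68 and 6.93 in siChst7 and 5.67 and 6.56 in siControl, and the one after it 1.17, 34.9 kb from Hoxb1, with 10.4 and 10.5 in siChst7 and 9.39 and 8.47 in siControl. All 3 lay in flanks and not at a Hox gene.

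The lowest ratio was 0.688, at the region between Hoxd13 and Evx2. It had 7.86 and 4.36 in siChst7 and 8.92 and 8.82 in siControl, so that the low mean rests on siChst7 replicate 2. The other low ratios, 0.747 and 0.752, belong to neighbouring regions between Hoxb13 and Hoxb9. The region chr11:96240162-96240540 had 9.51 and 9.13 in siChst7 and 12.2 and 12.8 in siControl. In chr11:96234884-96235356 the values were 13.1 and 11.95 in siChst7 and 15.8 and 17.5 in siControl. Both siChst7 libraries were below both siControl libraries at each of them, 30.8 and 36.0 kb from Hoxb9.

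As 1 value per library, the share of the 4 windows under peaks was 4.15 and 3.53% in siChst7 and 4.15 and 4.01% in siControl. The means were 3.84% ± 0.438 in siChst7 and 4.08% ± 0.101 in siControl (SD, n = 2 each). Their difference was -0.234 percentage points (exact permutation test, two-sided, p = 1). The siChst7 replicates lay further apart than that, and the siControl replicates did not. HOX peaks made up 0.123% ± 0.00519 of all peaks in siChst7 and 0.124% ± 0.00304 in siControl (SD, n = 2 each), a difference of -0.000406 (exact permutation test, two-sided, p = 1). With 2 libraries against 2 the smallest p this test can give is 0.333. The Hoxd window was the one window where both siChst7 libraries (1.34 and 1.21%) were above both siControl libraries (1.19 and 1.15%). That difference lay in the flanks, at 1.59 and 1.63% in siChst7 and 1.52 and 1.24% in siControl, whereas the groups overlapped in the cluster span, with a lower mean in siChst7.

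Genes that write or read the HOX pattern were mostly accessible at a gene end in all 4 libraries, where 53.8% of all protein-coding genes were. Polycomb genes had such a peak in 15 of 17 cases, among them Ezh2, the enzyme that methylates histone H3 at lysine K27, at 16.5 and 15.2 in siChst7 and 15.4 and 16.8 in siControl. So did Eed, Suz12, Bmi1 and Ring1, and the exceptions were Cbx7 and Phc2. Of the trithorax and demethylase genes 9 of 12 had one, including Kmt2a, which keeps Hox genes active, at 7.84 and 7.33 in siChst7 and 7.83 and 7.51 in siControl. The TALE cofactors that bind DNA together with HOX proteins had one in 9 of 9 cases. Among them Meis1 had 6.64 and 8.46 in siChst7 and 7.58 and 8.65 in siControl. The siRNA groups overlapped at Ezh2, Kmt2a and Meis1, but not at every gene of these lists. Among the 15 Polycomb genes with an end peak in all 4 libraries, Jarid2, Phf19 and Rnf2 had both siChst7 libraries lower, and Pcgf2 and Cbx8 had both higher. Over all regions of the genome called in all 4 libraries, both were lower at 29.8% and higher at 11.2%. Such genes are therefore not set apart from the genome by this. Phf19 had 8.44 and 8.55 in siChst7 and 9.07 and 9.07 in siControl. Pcgf2 had 8.69 and 8.85 in siChst7 and 8.14 and 8.12 in siControl.

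Of the genes of genome folding 5 of 9 had an end peak in all 4 libraries, Ctcf, Smc1a, Smc3, Stag2 and Maz. The table gives the outermost ends of all gene models, so a gene counted without a peak may have one at an inner start: Rad21 and Nipbl had none, but a region of all 4 libraries 1.35 and 1.43 kb from an end. Signals that switch on Hox genes in the embryo were mostly without one, with 3 of 12, the retinoic acid receptor genes Rara and Rarg and the trunk-to-tail signal Gdf11. Rarb, the Cdx genes, Fgf8 and Wnt3a had none in any library. Among other position factors 13 of 29 had one, including Pitx1 of the hindlimb (4.62 and 6.45 in siChst7, 6.60 and 7.71 in siControl, without overlap), En1 and Shox2. Tbx5, Hand1, Hand2 and Pax3 had none, and Tbx4 of the hindlimb had one in 1 siControl library. Alx1, a gene of the face, had 8.80 and 8.23 in siChst7 and 6.16 and 5.70 in siControl, without overlap. Pitx1 and Alx1 too are to be read against the genome shares of 29.8% lower and 11.2% higher. Of the 8 neighbours and ParaHox genes 3 had one, the cluster neighbours Mtx2, Skap1 and Skap2. No gene of any of these lists, nor any Hox gene, had an end peak confined to the pair of libraries of one siRNA.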

How the data were processed

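The files are peak lists, 1 per library, called per library and not pooled, per the peak names. Per the submitters' processing notes the build is mm10 and the tools are Bowtie, SAMtools, MACS3, bedtools and HOMER; of versions, the role of each tool, duplicate removal, the Tn5 shift and exclusion lists nothing is said there. The authors' score is the −log10 q times 10. Their deposited fold is a ratio, the summit's pileup divided by the background around it. The authors also give a −log10 p-value and a −log10 q-value for the summit, and every list ends just above a −log10 q of 2. Read totals are unknown, so no interval from counts is given.

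The pileup and background behind each summit were recovered from fold and −log10 p, with a pseudocount of 1 and whole reads under a Poisson model; between 99.2 and 99.8% of peaks per library matched within 0.02, and the solver was tested on simulated data. Peaks sharing at least 1 bp were merged. Gene positions came from RefSeq (GRCm38.p6), which gave a transcription start for 22 of the 39 Hox genes. The table holds no exons. Groups came from the labels; 1 value per library was compared by exact permutation tests (SciPy 1.17.1). Named genes are all 39 Hox genes and the non-coding genes of the clusters, of which Haglros had no match and Mir1932 lies outside the windows; named regions are the 3 strongest per cluster by lowest fold, those confined to 1 siRNA, and the 3 highest and lowest ratios without overlap. The members and lists were chosen with earlier results of these data known, and the fibroblast markers and some named regions after their values were seen. Alternatives were lists of equal length, a minimum −log10 q of 5, peaks of at least 200 bp, summit windows, overlap of at least 50%, flanks of 0 and 50 kb, start windows of 0.5 and 2.5 kb, rescaled folds, each replicate left out and a replicate block. A single Hox gene and a single cofactor gene enter the counts but are not reported here by themselves.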

Additional observations from a re-analysis of the deposited data

How the results depend on the processing

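Across 8 results and their alternatives, 61 values kept their direction and size class, 26 moved, 3 turned and 1 difference between the siRNAs reached 0. Counts that became 0 are among the values that moved. The 71 regions of all 4 libraries became 46 without flanks, and 72 to 77 with a library left out. The single siChst7-specific region became 2 with a −log10 q of at least 5 (genome 1.21%) or equal list length (genome 1.96%), 0 with flanks of 0 or 50 kb, and 2 to 6 with a library left out (genome 3.05 to 6.53%). The 3 siControl-specific regions became 1 with equal list length (genome 2.05%), 6 with summit windows (genome 3.10%), and 5 to 9 with a library left out (genome 4.56 to 9.03%). The 10 regions with both siChst7 folds above became 6 without flanks, 16 after division by each library's median fold (genome 20.5%), 4 by −log10 q (genome 7.38%), 6 by summit pileup (chosen after seeing the data; genome 15.7%), and 16 to 20 with a library left out (genome 22.7 to 25.6%). The 21 below became 16 after that division (genome 17.3%), 25 by −log10 q (genome 32.3%) and 24 by summit pileup (genome 28.5%). With a library left out they were 29 to 40 (genome 43.7 to 48.4%). Above and below, the counts by division, −log10 q and summit pileup are out of the same 71 regions. Leaving a library out makes non-overlap easier, since fewer values are compared. The 18 genes with a start region stayed between 15 and 19.

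The difference in covered share (-0.234) ranged from -0.544 to 0.0757 with a library left out and turned without siChst7 replicate 2. That in the share of all peaks (-0.000406) was 0 with equal list length, ranged from -0.00408 to 0.00326 and turned without siChst7 replicate 1 (0.00326) or siControl replicate 1 (0.00174); the cause was not tested. Samples of 2 groups share replicate numbers, but the labels do not say that a number pairs them; with the replicate number as a block both differences were the same, -0.234 and -0.000406 (exact sign-flip permutation, p = 1).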
